A study of Mus musculus with 2 samples.

Results

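The genes of the ISG15 conjugation system were followed in nuclear RNA of mouse macrophages. The 5 genes were taken by symbol with no filter on their values, though earlier results of these data were known. They are Isg15 for the modifier, Uba7, Ube2l6 and Herc6 for the enzymes that attach it, and Usp18 for the enzyme that removes it. All 5 were found once each among the 55536 annotated genes of the deposited gene-level tables, and they have 30 annotated transcripts. The study sequenced total RNA, depleted of ribosomal RNA, from nucleoplasm, the soluble nuclear fraction, of macrophages grown in culture from bone marrow precursors. The mice were of strain C57BL/6J, and no transgene or deletion is named. Cells had received Lipid A for 12 h at 100 ng/ml. This is the membrane anchor of bacterial lipopolysaccharide and the ligand of the receptor TLR4. After 12 h of washout, the cells were collected as a renewed dose of 100 ng/ml began, at 0 min. There are 2 libraries, biological replicates 1 and 2 of a single group, and both carry the same donor entry, so the spread between them may be technical. Replicate 1 started from 1 µg of RNA and replicate 2 from 500 ng, so the starting amount and the replicate number cannot be told apart. No untreated library was analysed here. The values are therefore levels and compositions within 1 condition, and no result below is a response to Lipid A.

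ISG15 is a ubiquitin-like protein made of a pair of ubiquitin-like folds, and its gene is among the best-known targets of type I interferon. Its ligation to lysines of other proteins, called ISGylation, runs through an enzyme chain like that of ubiquitin. UBA7 activates ISG15, UBE2L6 carries it, and in mouse cells HERC6 is the main ligase, a role that HERC5 has in human cells. USP18 cuts ISG15 off its targets and, apart from that activity, binds the interferon receptor chain IFNAR2 and damps its signalling. In macrophages, Lipid A leads to interferon beta production through the adaptor TRIF, and secreted interferon acts back on the cells.

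A few sequences show what is shared and what is particular among the members. The first pair is the end of the coding sequence of Isg15 and of Ubb, a gene of ubiquitin itself, because the modifier is joined to its targets through the last glycine of a motif that both proteins carry there. Capitals mark the 6 codons of that motif, and 14 of the 18 bases were identical. In Isg15 they are bases 448 to 465 of 483 coding bases, with 6 codons after them that are cut off before ISG15 is used. In Ubb they are bases 895 to 912 of 915, the last of 4 copies of the motif in a gene that strings ubiquitin units head to tail, with 1 codon after them. Both sequences were read from the GENCODE mouse release 21 coding sequences.
Isg15-201: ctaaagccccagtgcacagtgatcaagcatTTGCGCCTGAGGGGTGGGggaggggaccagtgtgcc
Ubb-201: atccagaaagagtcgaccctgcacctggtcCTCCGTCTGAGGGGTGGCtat

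The next sequence is the 250 bases before the annotated start of Isg15, because factors of the interferon pathway bind elements of one kind in such promoters. It was taken from the RefSeq promoter table for GRCm38.p6, at chr4:156200819-156201068 on the minus strand. Capitals mark matches on either strand to GAAANNGAAA, a core form of the interferon-stimulated response element, or to AANNGAAA, a shorter motif that lies inside it.
Isg15 promoter: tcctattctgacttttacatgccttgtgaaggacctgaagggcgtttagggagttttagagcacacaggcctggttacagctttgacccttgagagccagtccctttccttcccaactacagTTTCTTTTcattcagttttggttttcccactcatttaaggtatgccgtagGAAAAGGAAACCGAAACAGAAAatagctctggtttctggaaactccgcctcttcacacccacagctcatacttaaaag
The longer motif matched 3 times, with each match overlapping the next, between bases -78 and -57 from the start. At least 1 match stands in 978 of 32851 windows of 250 bases in the table, which is 2.98%. The shorter motif matched 4 times in the Isg15 window, 3 of them inside the longer matches, and the remaining match is on the reverse strand between bases -128 and -121. It is common, with a match in 6999 windows, or 21.3%. Of the 4 members with an entry in the table, Uba7 had a match to the shorter motif alone, and Ube2l6 and Herc6 had a match to neither in their windows. The promoter of Usp18 was not searched. The Uba7 match lies on the reverse strand at bases -27 to -20 of its RefSeq start. It begins 6 bases after the start of Uba7-201, within that transcript's first exon. The stretch around it is chr9:107975530-107975557 on the plus strand.
Uba7 stretch: ctcagtctagTTTCACTTttggtttcct
A match is a description of letters, and none of these files measures binding.

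Isg15 is a short gene of 2 exons and 1 annotated transcript (ENSMUSG00000035692.6, mm10 chromosome 4, 156199424 to 156200818, minus strand). Levels are given in TPM, which divides counts by transcript length and scales each library to a fixed total. Isg15 stood at 221 TPM in replicate 1 and at 104 in replicate 2, or 162 ± 82.5 (SD, n = 2), from 3342 and 1379 expected counts. A second deposited quantification, made straight from the reads, gave 90.5 and 63.3 TPM. Replicate 1 was the higher in both tables. Among 22028 protein-coding genes, Isg15 was at percentile 99.4 and 98.7 in the gene-level tables. Its deposited posterior SD of the count, a measure of how reads shared with other gene models move the estimate, was 0 in both libraries, and no annotated gene overlaps it.

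Uba7 encodes the activating enzyme of the chain and had the highest gene-level TPM of the 5 (ENSMUSG00000032596.14, mm10 chromosome 9, 107975505 to 107984060, plus strand). Replicate 1 had 265 TPM and replicate 2 had 158, or 212 ± 75.5 (SD, n = 2), from 12303 and 6370 expected counts. By the second quantification it had 120 and 117 TPM, nearly the same in both libraries. Most of this level was not assigned to the transcript that encodes the enzyme, as described below. The protein-coding gene Gm20661 overlaps the end of Uba7 on the same strand and was low, with 0.59 and 0.49 TPM.

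Ube2l6 encodes the conjugating enzyme and had the lowest gene-level TPM of the 5 (ENSMUSG00000027078.14, mm10 chromosome 2, 84798828 to 84810335, plus strand). Replicate 1 had 44.2 TPM and replicate 2 had 51.0, or 47.6 ± 4.79 (SD, n = 2), from 1664 and 1651 expected counts. In the second quantification it had 29.1 and 34.2 TPM. It had the smallest difference between libraries of the 5 in the gene-level tables and was the only one of the 5 higher in replicate 2, in both quantifications.

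Herc6 encodes the ligase and spans the longest locus, 83633 bases (ENSMUSG00000029798.11, mm10 chromosome 6, 57581000 to 57664632, plus strand). Its level was 208 TPM in the first library and 159 TPM in the other, or 184 ± 34.7 (SD, n = 2), from 21943 and 15141 expected counts, the most of any member. Its values in the second quantification were 122 and 107 TPM. Its posterior SD of the count was 10.7 and 7.54, and the noncoding gene Gm45193, which overlaps it on the same strand, had the same posterior SDs with 37 and 16 counts. The pseudogene Gm19244 lies on the opposite strand inside Herc6 and held 27 and 9 counts. Whether counting used strand is not given in the sources used here, so these overlapping genes are uncertain, and their counts are small beside those of Herc6.

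Usp18 encodes the enzyme that removes ISG15 (ENSMUSG00000030107.10, mm10 chromosome 6, 121245906 to 121270917, plus strand). Its level in replicate 1 was 103 TPM, against 61.8 TPM in replicate 2, or 82.6 ± 29.4 (SD, n = 2), from 3829 and 1887 expected counts. The second quantification gave 60.02 and 46.8 TPM, again with replicate 1 higher. The lincRNA Gm44148 overlaps Usp18 on the opposite strand. It had 0 expected counts in both libraries, but the second quantification gave it 9.77 and 5.16 TPM.

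The order of mean gene-level TPM was Uba7, Herc6, Isg15, Usp18, Ube2l6, and the second quantification gave the same order. The libraries' values of Uba7 and Herc6 overlapped, as did those of Herc6 and Isg15, so those neighbours did not differ beyond their spread in the gene-level tables. Uba7 and Herc6 overlapped in the second quantification as well, but there Herc6 lay above Isg15 in both libraries with no overlap. Isg15 lay above Usp18 and Usp18 above Ube2l6 in both libraries with no overlap. The margin of Isg15 was narrow in the gene-level tables, 103.94 TPM in replicate 2 against 103.37 for Usp18 in replicate 1. All 5 genes stood at 10 TPM or more in both libraries, as 19.7% of protein-coding genes did. TPM in the gene-level tables ran 1.52 to 2.44 times that of the second quantification for the members in replicate 1 and 1.32 to 1.64 times in replicate 2. The median gene ran 1.79 and 1.33 times, over 9783 protein-coding genes, so levels from the tables are not interchangeable. By expected counts alone, scaled to library totals and not divided by length, the order was Herc6, Uba7, Usp18, Isg15, Ube2l6.

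**Figure D1:**
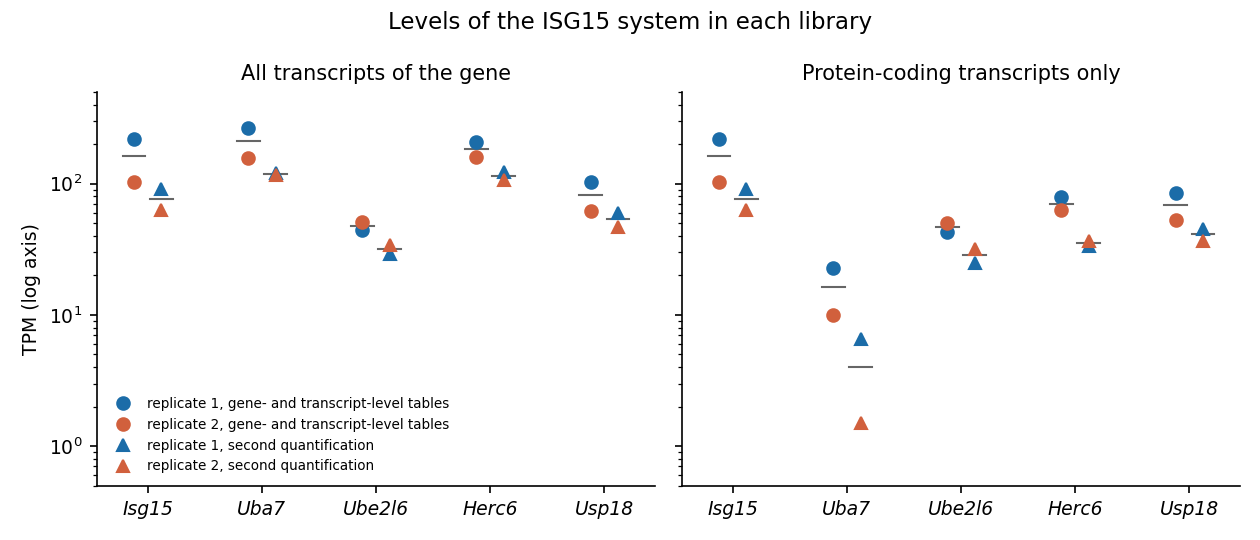
TPM on a log axis of each member, for all transcripts of the gene (left) and for protein-coding transcripts alone (right). Circles are the gene-level and transcript-level tables, triangles the second quantification, blue replicate 1, orange replicate 2 and grey lines the mean of the 2 libraries. Uba7 has the highest mean on the left, 212 TPM, and the lowest on the right, 16.3 TPM.

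The transcript-level tables divide each gene's level over its annotated transcripts, and the members differed widely there. In nuclear RNA, transcripts can carry introns that have yet to be spliced out, and the annotation holds such forms as retained-intron transcripts. Short reads are shared out among overlapping models, so a transcript's value is an estimate. A retained-intron transcript and unspliced precursor RNA over the same intron cannot be told apart here.

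For Uba7, retained-intron transcripts took 77.1% of transcript TPM in replicate 1 and 70.8% in replicate 2, or 74.0% ± 4.43 (SD, n = 2). In the second quantification these shares were 75.3% and 68.7%. The share was 68.7% when taken over expected counts, which are not divided by length. Across 6143 protein-coding genes, the median share was 29.2% and 30.7%, and Uba7 was at percentile 97.6 and 94.2. The only protein-coding transcript, Uba7-201, had 22.6 and 10.1 TPM, which was 8.53% and 6.36% of the gene. It had 6.53 and 1.49 TPM in the second quantification. Protein-coding transcripts took less than 10% of transcript TPM in both libraries for Uba7 alone of the 5, and for 1.53% of the 6143 genes. In the second quantification that share of genes was 5.39%.

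Herc6 was the other member with a large retained-intron share, 53.0% in replicate 1 and 58.7% in replicate 2, or 55.9% ± 3.99 (SD, n = 2). Uba7 and Herc6, 2 of the 5, were above 50% in both libraries, as were 15.4% of the 6143 genes. The second quantification gave Herc6 only 37.4% and 49.3%, so it fell under 50% there, where 24.3% of 6291 genes were above. The protein-coding transcript Herc6-201 had 78.5 and 62.7 TPM, or 38.6% ± 1.20 of the gene.

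The remaining members were mostly protein-coding RNA. Usp18 had 17.1% and 15.1% in retained-intron transcripts and Ube2l6 had 2.80% and 1.47%, both under the median gene. By the second quantification the shares were 24.3% and 21.3% for Usp18 and 11.9% and 4.29% for Ube2l6, under its medians of 34.8% and 35.6%. Over expected counts the mean shares were 5.38% for Usp18 and 0.489% for Ube2l6. Isg15 has no annotated retained-intron transcript, so its share of 0 is set by the annotation.

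**Figure D2:**
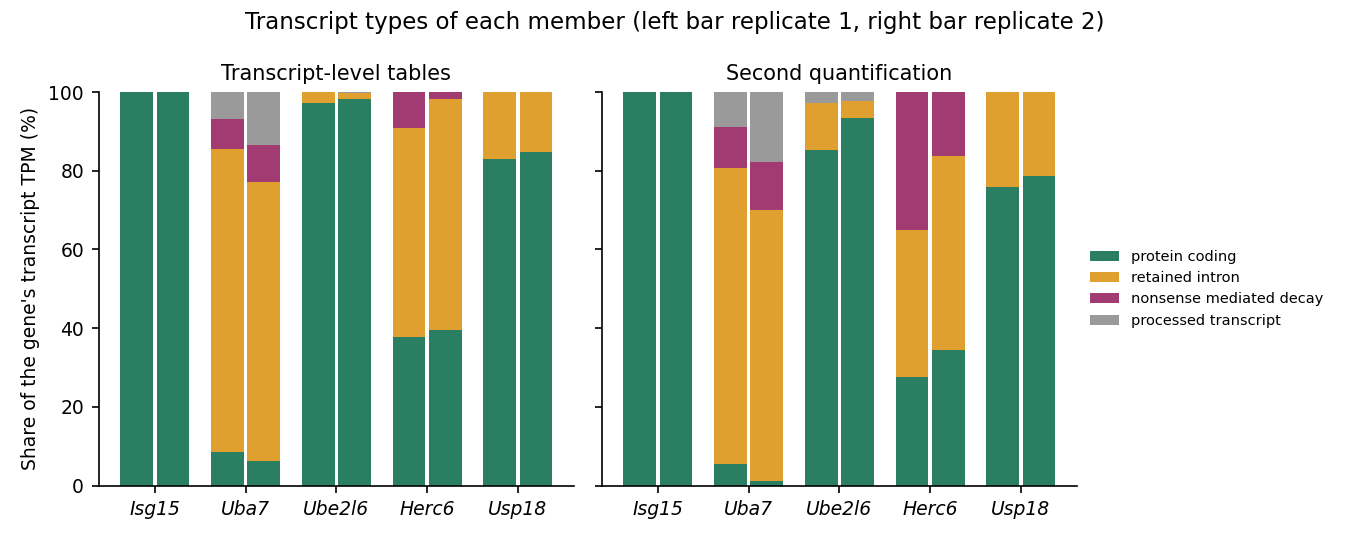
Share of each member's transcript TPM, in percent, by annotated transcript type, in the transcript-level tables (left) and the second quantification (right), with replicate 1 and replicate 2 as neighbouring bars. Retained-intron transcripts take 77.1% and 70.8% of Uba7 and 53.0% and 58.7% of Herc6 on the left, against 2.80% and 1.47% of Ube2l6.

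Most of the retained-intron level of Herc6 came from 1 transcript. Herc6-202 is a single exon of 4378 bases that runs through introns 7 and 8 of the 22 introns of Herc6-201, and 93.2% of it lies outside the exons of Herc6-201. It had 93.5 and 78.2 TPM in the 2 libraries, or 47.0% ± 3.004 of the gene by TPM and 52.0% by expected counts. Reads from those introns in any unspliced RNA can be assigned to such a model. Among transcripts that either hold or splice out intron 7, those that hold it took 53.1% and 55.0%, and for intron 8 the values were 51.3% and 51.5%. No annotated transcript holds any of the other 20 introns whole. Herc6-203, annotated for nonsense-mediated decay, was unsteady, with 19.2 and 3 TPM, and with 42.9 and 17.5 TPM in the second quantification. Herc6-206, a retained-intron form of 513 bases, had 6.22 and 9.77 TPM.

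Intron 7 of Herc6 is 455 bases long, at chr6:57607179-57607633 on the plus strand of mm10, and its GC content was 29.7%. Its ends are shown because it is the shorter of the introns that the retained model holds whole. Each line has 20 exon bases in lower case and 60 intron bases in capitals, and the intron opens with GT and closes with AG, as do the introns below.
Herc6 intron 7 start: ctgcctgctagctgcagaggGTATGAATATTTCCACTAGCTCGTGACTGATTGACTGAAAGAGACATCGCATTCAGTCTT
Herc6 intron 7 end: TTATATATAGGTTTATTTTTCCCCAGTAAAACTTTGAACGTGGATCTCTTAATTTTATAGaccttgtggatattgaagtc

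The retained-intron level of Uba7 was spread over many models instead. Of its 15 transcripts 10 are annotated as retained introns, and 7 of those hold at least 1 whole intron of Uba7-201. Between them these 7 and the decay transcript Uba7-214 hold 10 of the 23 introns. Introns 8 and 15 were the most often held: transcripts that hold intron 8 took 47.1% and 48.5% of the TPM of transcripts that hold or splice it, and for intron 15 the values were 45.1% and 51.9%. The second quantification gave 48.4% and 47.0% for intron 8. Introns 17, 19 and 20 followed, with means of 25.1%, 27.2% and 33.9%, and intron 5 had 22.9%. The introns of Uba7 are short, with a median of 100 bases against 1922 in Herc6.

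Intron 15 of Uba7 is short enough to print whole. It is 85 bases long, at chr9:107979459-107979543 on the plus strand of mm10, with a GC content of 51.8%. Capitals mark the intron, with 20 bases of each neighbouring exon in lower case.
Uba7 intron 15: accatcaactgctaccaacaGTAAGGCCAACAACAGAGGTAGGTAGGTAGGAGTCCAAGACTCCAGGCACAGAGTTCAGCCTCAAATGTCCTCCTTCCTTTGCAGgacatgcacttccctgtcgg

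Among single Uba7 transcripts, Uba7-212 had the highest TPM, 74.3 and 27.3. It is a short model of 503 bases at the end of the gene, and it held 22.6% of the gene by TPM but 3.87% by expected counts. By counts the leading transcript was Uba7-210, which holds introns 8 and 15 in an otherwise near full-length RNA of 3620 bases. It had 28.1 and 19.9 TPM and 24.2% of the counts, against 13.7% for Uba7-201. Uba7-207, which holds introns 17, 19 and 20, had 34.6 and 22.2 TPM and 17.8% of the counts. Uba7-214, which holds intron 23, had 16.7 and 13.9 TPM and 15.4% of the counts.

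The other named Uba7 transcripts were lower by counts. Uba7-215, with intron 8, had 15.9 and 6.20 TPM and 9.65% of the counts. Uba7-206, with introns 2, 12, 13 and 15, had 12.6 and 10.6 TPM and 7.48% of the counts. Uba7-203, a fragment of 362 bases with intron 5, had 24.7 and 17.8 TPM but 0.895% of the counts. The noncoding Uba7-209 had 16.2 and 17.6 TPM and 0.749% of the counts. Uba7-204, Uba7-208 and Uba7-211 each stayed under 4 TPM in the transcript-level tables, with 2.54 to 9.60 TPM in the second quantification.

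**Figure D3:**
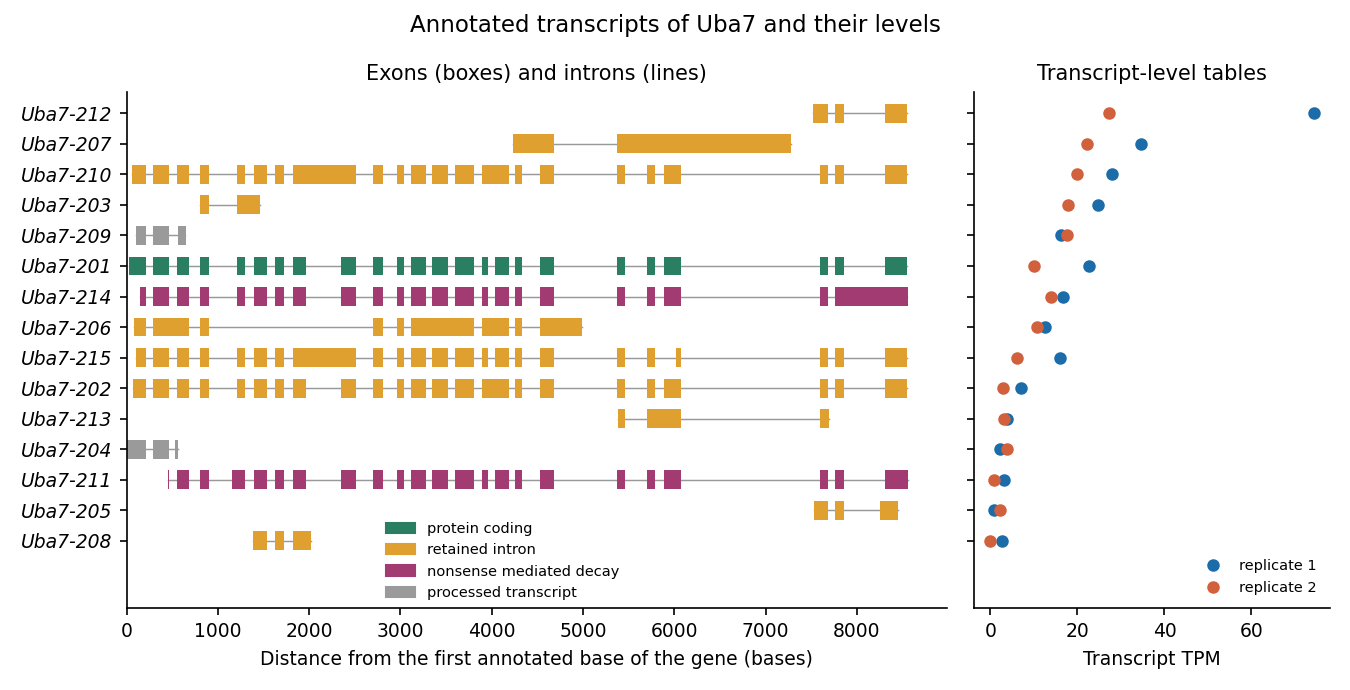
Exons of the 15 annotated Uba7 transcripts as distance in bases from the first annotated base of the gene (left) and the TPM of each in the transcript-level tables (right), ordered by mean TPM and coloured by type. The protein-coding Uba7-201, in green, has 22.6 and 10.1 TPM, and 5 transcripts have a higher mean.

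Usp18 and Ube2l6 were each carried by 1 coding transcript. Usp18-201 had 80.2 and 45.6 TPM, which was 75.7% of the gene by TPM and 92.8% by expected counts. The retained-intron forms Usp18-204 and Usp18-202 had 9.30 and 5.58 TPM and 8.36 and 3.77 TPM, and neither holds a whole intron of Usp18-201. The short coding model Usp18-203 had 5.48 and 6.86 TPM. Ube2l6-201 had 43.0 and 49.8 TPM, or 97.4% of its gene, against 56.8% and 73.5% in the second quantification. The quantifications disagreed on the short coding model Ube2l6-202, at 0 and 0.31 TPM in the transcript-level tables and 8.28 and 6.82 TPM in the second quantification. Ube2l6-204, a retained-intron form, had 1.24 and 0.75 TPM.

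Counting protein-coding transcripts alone gave another order of the members. Isg15 then led with 162 ± 82.5 TPM, followed by Herc6 with 70.6 ± 11.2, Usp18 with 69.1 ± 23.5, Ube2l6 with 46.5 ± 5.02 and Uba7 with 16.3 ± 8.88 (SD, n = 2 each). Uba7 thus moved from the first place to the last. Isg15 has 1 annotated transcript, a coding one, so the annotation fixed its value at that of the whole gene. The values of Herc6 and Usp18 overlapped, and no other neighbours did. In the second quantification Isg15 led and Uba7 was last as well, at 76.9 and 4.01 TPM on average, and Usp18 and Herc6 changed places.

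Between the libraries, 4 of the 5 members were lower in replicate 2, and so were 50.8% of the 10198 genes that averaged at least 100 counts. With edgeR TMM scaling, the log2 ratio of replicate 2 over replicate 1 was -1.02 for Isg15, with a 95% counting interval from -1.11 to -0.93. It was -0.77 for Usp18, -0.69 for Uba7 and -0.28 for Herc6, and 0.24 for Ube2l6. Only Isg15 reached a log2 ratio of 1 in size, as 2% of the 10198 genes did in either direction and 1.18% in the direction of Isg15. Of those genes, 1.09% were further down than Isg15, 2.87% than Usp18, 3.81% than Uba7 and 20.5% than Herc6. With 1 library against 1 other there is no test of such a difference, and the intervals cover counting error only. With library totals as the scaling, or in the second quantification, the Isg15 ratio was -0.98 and -0.92, short of 1 in size. With protein-coding transcripts alone, Uba7 reached -1.15.

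Other interferon-stimulated genes were lower in replicate 2 as well. Of 29 such genes, 27 had a ratio below 0, with a median of -0.41, against a median of -0.01 over all 10198 genes with an SD of 0.43. The antiviral tetherin gene Bst2 was the only one of them lower by at least 1, at -1.30. All 10 macrophage markers were also lower, with a median of -0.32, and their summed level was 2846 and 2311 TPM. Fcgr1, the high-affinity receptor for immunoglobulin G, was at -1.04. These directions depend on the measure. By TPM of the second quantification, not scaled by TMM, only Cd68 and Fcgr1 of the markers were lower in replicate 2. Lyz2, for example, had 502 and 570 TPM there. Among the 29 genes, Ifit2 had 307 and 339 TPM there and Mx1 had 718 and 463. The part of these differences in those of the ISG15 system was not tested. In bulk RNA, fewer cells of a type and less RNA per cell cannot be told apart.

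**Figure D4:**
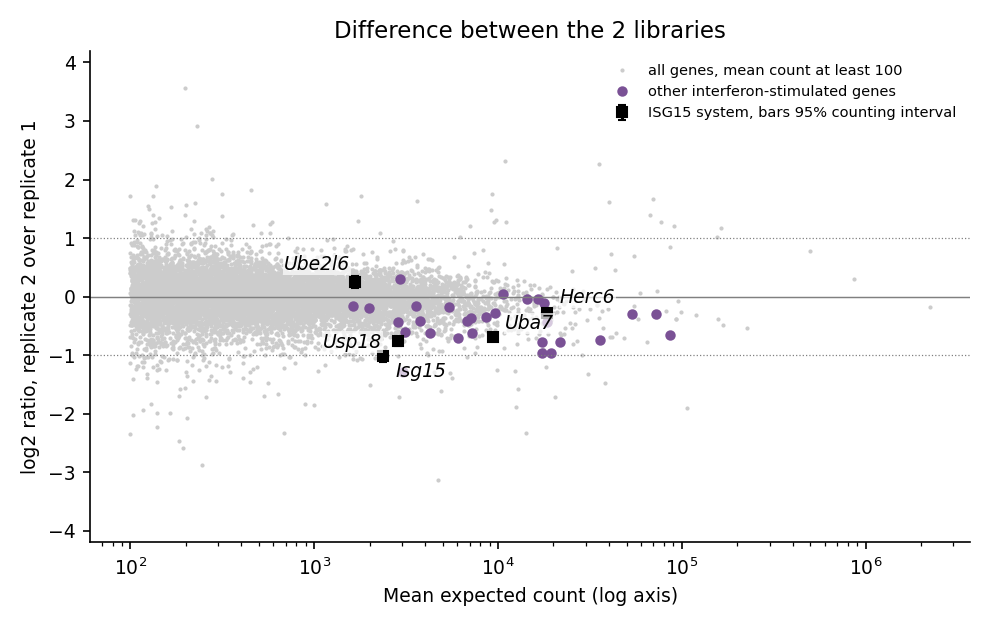
Log2 ratio of replicate 2 over replicate 1 against mean expected count (log axis) for genes averaging 100 counts or more in grey, other interferon-stimulated genes in purple and the members as black squares with 95% counting intervals. Dotted lines mark a log2 ratio of 1 either way, and 5 genes lie outside the drawn range. Isg15, at -1.02, lies at the lower line and Ube2l6, at 0.24, is the only member above 0.

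The cell type markers matched the label. All 10 macrophage markers stood at 10 TPM or more in both libraries, as did 19.7% of all protein-coding genes. Lyz2, the macrophage lysozyme, was at 1247 TPM, and Tlr4, the Lipid A receptor, at 26.2 TPM, on average. All 12 markers of other cells were under 1 TPM, with a summed level of 1.72 and 1.64 TPM. Of these, the T cell gene Cd3e, the natural killer cell gene Ncr1, the neutrophil gene Ly6g and the mast cell gene Mcpt4 were listed at 0 counts, and the dendritic cell gene Zbtb46 was highest at 0.74 TPM in each library.

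Each member was set beside the gene with the same role for ubiquitin, as a log2 ratio of TPM within each library with 0.1 added to both values. Isg15 was above Ubb, by 1.54 and 0.86, or 1.20 ± 0.48 (SD, n = 2). Ube2l6 was above Ube2l3, the ubiquitin-carrying enzyme most like it, by 1.33 and 1.62, and by 0.66 and 0.81 in the second quantification.

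Uba7 was above Uba1, the main activating enzyme of ubiquitin, by 3.43 and 2.72, or 3.08 ± 0.50 (SD, n = 2). That difference rested on the transcripts that do not encode the enzyme. With protein-coding transcripts alone the ratio was 0.04 and -0.77, or -0.37 ± 0.57 (SD, n = 2), so its direction differed between the libraries. In the second quantification that ratio was below 0 in both libraries, at -0.41 and -2.66. Over Uba6, the other ubiquitin activating enzyme, Uba7 was higher by 5.63 on average, and by 2.16 for protein-coding transcripts alone. The ratio of protein-coding transcripts in the second quantification was 2.10 and -0.52, so its direction differed between the libraries.

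Herc6 was the highest of the HERC genes measured. The related large ligase gene Herc1 stood at 58.4 TPM on average, Herc4 at 40.1, Herc2 at 20.0 and Herc3, the neighbour of Herc6 in the family of small HERC ligases, at 3.15. The log2 ratio of Herc6 over Herc1 was 1.64 ± 0.17, over Herc4 2.19, over Herc2 3.18 and over Herc3 5.81. In the second quantification the ratio over Herc3 was 2.95, since Herc3 was at 12.1 and 17.8 TPM there.

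Further genes of the pathway were mostly present. While 19.7% of protein-coding genes stood at 10 TPM or more in both libraries, 5 of 6 other enzymes reported to act on ISG15 did. The ligase gene Trim25 was highest at 98.9 and 80.9 TPM, and the ligase gene Arih1 had 24.6 and 29.0 TPM. The proteases Usp5, Usp14 and Usp21, which act mainly on ubiquitin, were at 30.2, 26.5 and 20.1 TPM on average. In the second quantification Usp21 was at 7.84 and 11.6 TPM, under 10 in replicate 1. Usp13 was listed at 0 counts in both libraries, where a count of 0 allows up to 0.131 and 0.161 CPM, counts scaled to the library total, and at 0.0290 and 0.0580 TPM in the second quantification.

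All 6 listed genes of the interferon receptor, its kinases and partners of USP18 were at 10 TPM or more in the gene-level tables. Of all protein-coding genes, 19.7% were at that level in both libraries. Stat2, which brings USP18 to the receptor, was at 295 and 214 TPM. The receptor chains Ifnar1 and Ifnar2 were at 62.4 and 48.4 TPM on average, and the kinases Tyk2 and Jak1 at 57.9 and 28.3. Skp2, a ubiquitin ligase subunit that acts on USP18, was at 11.9 TPM on average. In the second quantification Skp2 was under 10 TPM, at 6.31 and 8.06. Itgal and Itgb2, the chains of the integrin LFA-1 that binds secreted ISG15, were at 39.5 and 123 TPM.

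The transcription factors of the interferon response were also high. Irf7 stood at 507 and 255 TPM and Irf1 at 96.7 and 58.8. Irf3, which acts before interferon is made, was at 42.0 and 32.2 TPM, and Irf9, a partner of STAT2, at 31.4 and 27.4. All 6 listed factors, Stat2 included, were lower in replicate 2, by a median of -0.52 on the log2 scale. By TPM of the second quantification, only Irf3 (20.1 and 23.3) and Irf9 (13.0 and 15.2) of them were higher in replicate 2.

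The other ubiquitin genes and modifiers were mostly lower than Isg15. Of 9 ubiquitin counterparts, 7 stood at 10 TPM or more in both libraries, as did 19.7% of all protein-coding genes. Among the 7, Ube2d3 was at 84.7 TPM on average, Ubb at 66.5 and Rps27a at 53.9. Uba1, Ube2l3, Ube2d1 and Uba6 were at 24.2, 17.0, 10.5 and 4.08 TPM. The count was 7 of 9 for other ubiquitin-like modifiers, of which Fau was highest at 86.5 TPM and Urm1 lowest at 7.29. It was 5 of 7 for their activating and conjugating enzymes, of which Sae1, a subunit of the SUMO activating enzyme, was lowest at 8.79 TPM.

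**Figure D5:**
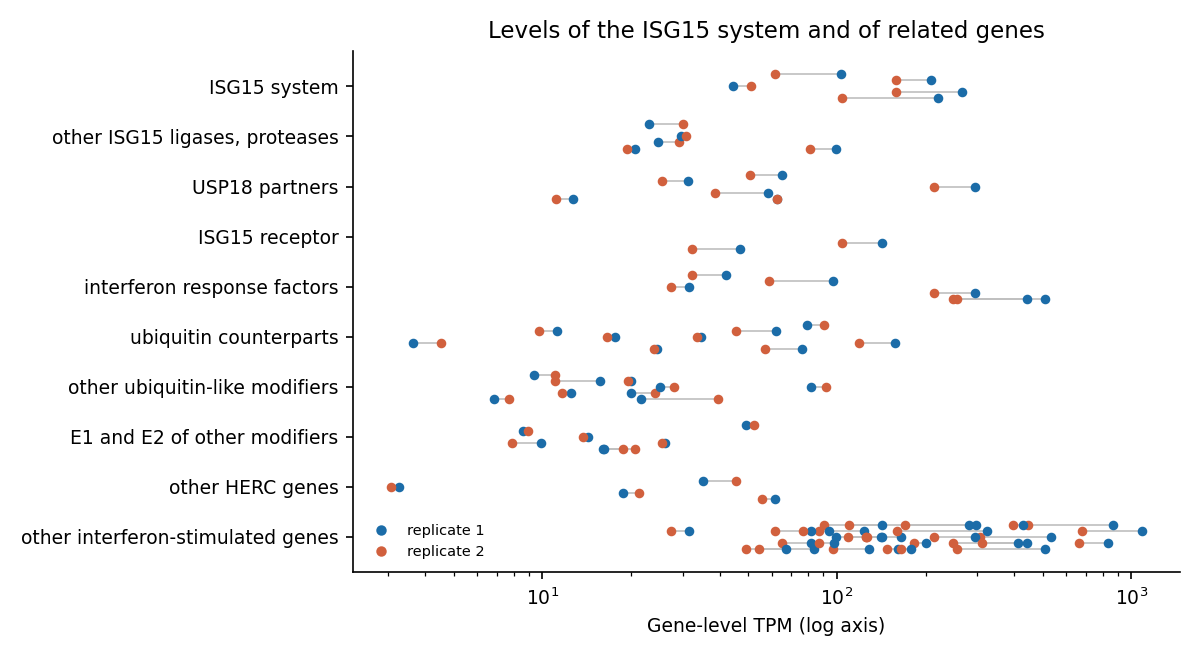
Gene-level TPM (log axis) of each gene in replicate 1 (blue) and replicate 2 (orange), joined by a line, by group. The ISG15 system spans 44.2 to 265 TPM, and Usp13, at 0, is not drawn.

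Among interferon-stimulated genes the members held middle to low places. All 29 others reached at least 10 TPM in both libraries, from Irf9 at the bottom to Rsad2, the gene of viperin, at the top. Of all protein-coding genes, 19.7% reached that level. In the ranking of all 34 by mean TPM, Uba7 was at place 12, Herc6 15, Isg15 18, Usp18 28 and Ube2l6 33. The genes nearest to each member were found by distance in log2(TPM + 0.1) over the 2 libraries, and only levels, not their control, are compared. They were Bst2 (distance 0.35) and Ddx58 (0.50) for Isg15, Cxcl10 (0.20) and Cmpk2 (0.29) for Uba7, and Gbp3 (0.61) and Oas1a (0.92) for Ube2l6. For Herc6 they were Oas2 (0.21) and Ifitm3 (0.25), and for Usp18 Dhx58 and Eif2ak2 (0.34 each).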

How the data were processed

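The 5 members and all gene lists were chosen with earlier results of these data known. The authors' deposited gene-level and transcript-level tables give expected counts, TPM, a percent of each gene per transcript, and posterior estimates. The percent was recomputed from TPM. The deposited second quantification gives estimated counts and TPM. Per the notes deposited beside the files, the assembly is mm10 and the annotation GENCODE M21. What is not given in the sources used here is the program, its version, the use of strand and the level of the deposited credible intervals.

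Expected counts over 55536 annotated genes summed to 22907877 and 18612405, and the estimated counts of the other quantification to 30419009 and 32279044. Another 26345 entries, with 1.01% and 0.336% of expected counts, were left out. Protein-coding genes took 27.5% and 29.5% of gene-level TPM, and every TPM depends on that share. Expected counts were rounded. Ratios used edgeR 4.0.16 TMM factors (0.985 and 1.02) on 14892 genes past filterByExpr, a prior count of 0.5 and exact (Clopper-Pearson) 95% intervals, which, like the floor of 3 counts, cover counting error only. DESeq2 1.42.0 size factors in R 4.3.3 were an alternative. With 1 group there was no test between conditions.

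Retained-intron shares were compared over protein-coding genes with at least 1 such transcript that reached 1 TPM in each library. Symbols, positions and transcript types came from GENCODE M21. Transcripts were named at 5% or more of the gene's TPM in at least 1 library of either quantification. Other named genes were whole lists, the highest and lowest of the larger lists, the 2 nearest genes per member, and overlapping genes, and some genes these rules name are not reported here. Bst2, Fcgr1, Lyz2, Tlr4 and the markers at 0 were named after their values were seen. Scripts were tested on simulated data and ran in Python 3.11.15 with pandas 2.3.3.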

Additional observations from a re-analysis of the deposited data

How the results depend on the processing

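The median of the members' mean levels was 162 TPM, 76.9 in the second quantification, 577 when TPM was rescaled over protein-coding genes and 69.1 over protein-coding transcripts alone, an alternative added after the data were seen. It ran from 104 to 208 when 1 library was left out. Of the 5 ranks, 1 stayed by CPM and 1 with protein-coding transcripts alone. Members whose log2 ratio reached 1 in size were 1 with TMM, 0 with library totals, 0 in the second quantification and 2 with protein-coding transcripts alone, where Uba7 was at -1.15. In each of these settings 4 members were lower in replicate 2. Genes apart were 204 of 10198, and 680 of the 14892 past filterByExpr with no minimum. They were 330 at a minimum mean count of 50 and 500 in the second quantification. These settings cover different sets of genes, so the counts cannot be compared directly. The median retained-intron share of the 4 members with such transcripts was 35.98%, with 33.0% in the second quantification, 29.2% over expected counts and 35.1% to 36.9% with 1 library left out. Members above 50% were 2, and 1 in the second quantification. The mean log2 ratio of Uba7 over Uba1 was -0.37 with protein-coding transcripts alone, where its direction differed between the libraries. Of 48 listed pathway genes, 40 were at 10 TPM or more in both libraries, beside 19.7% of all protein-coding genes. The count was 34 in the second quantification and 41 with either library left out. Of the levels, shares and counterpart ratios of single genes, 50 moved by less than the SD of the libraries, 20 by more and 1 reversed in its mean. The 50 include every setting with 1 library left out. With 2 libraries, either value always lies within their SD of the mean, so those settings could not count as moved. Of the replicate ratios of single genes, 19 stayed within their counting interval and 6 did not. The cause of these differences was not tested. No paired analysis was possible because there was 1 group. With 2 libraries from 1 donor entry, SDs rest on 2 values each.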
